A study of Mus musculus with 12 samples.

Results

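The goblet cell secretory genes examined here are 10 mouse genes chosen by symbol: Muc2, Fcgbp, Clca1, Tff3, Zg16, Agr2, Spdef, Spink4, Klk1 and Foxa3. All 10 were found among the 55487 genes of the deposited tables, and all 10 passed the filter on low counts. They were followed through 12 RNA sequencing libraries of C57BL/6 intestine in 4 groups of 3: freshly isolated crypts of the small intestine (SI tissue) and of the large intestine (LI tissue), and monolayers grown from such crypts for 24 h (SI monolayers and LI monolayers). Each tissue library came from 1 mouse and each monolayer library from pooled wells. No group received an oncology drug. Both kinds of monolayer spent the first 4 h in a seeding medium that held small-molecule kinase inhibitors and no Noggin. They then grew in the same medium with Wnt3a, EGF, Noggin and R-spondin-1 on Matrigel. The medium in which LI was digested also held an inhibitor of this kind. All mice were aged 6 to 10 weeks and of either sex, with the sex of each library not given. SI crypts for monolayers were taken from the jejunum and released with EDTA, whereas LI crypts were also digested with collagenase and dispase, so region and isolation cannot be told apart. By the methods, the large intestine for monolayers came from the same mice as the jejunum, but the labels do not link libraries by mouse. The main tests therefore treat the groups as unpaired. The labels also do not say which mice, if any, gave both tissue and monolayers. Whether the 3 monolayer libraries of a region came from separate mice is not given either. The spread between monolayer libraries may therefore be technical. The 4 groups share 1 estimate of the dispersion of each gene, so each p-value below draws on the spread within all 4 groups. It does not measure the spread of the compared groups alone.

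Goblet cells are the mucus-making cells of the intestinal epithelium. They pack the mucin MUC2 into granules together with a small set of other secreted proteins, and the released mixture swells into the gel that keeps bacteria away from the epithelium. The colon carries more goblet cells and thicker mucus than the small intestine. The cells arise from the secretory lineage, which the transcription factor ATOH1 opens when Notch signalling is low, and SPDEF drives their maturation. Every library here is a bulk sample, in which fewer goblet cells and less RNA per goblet cell cannot be told apart. By staining for this mucin, the paper reports a greater proportion of goblet cells in LI monolayers than in SI monolayers. Cells were not counted in the libraries themselves, and the part of goblet cell number in the values below was not tested.

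The members differed in how they stood between the regions in culture, so the 250 bases before the annotated start are shown for the mucin gene Muc2 and for Klk1, which stayed higher in LI, and for Fcgbp and Foxa3, which turned to higher in SI. The sequences are RefSeq's for GRCm38.p6, read 5′ to 3′ on the strand of the gene. Capitals mark matches, on either strand, to the E-box spelled CAGCTG, to the other E-box searched, which is spelled CAGATG, and to the TATA box spelled TATAAA. E-boxes are the kind of site that ATOH1 and related factors bind. A forkhead site, the kind that FOXA proteins bind, was searched for as TGTTTAC and, in its other common spelling, as TGTTTGC. No searched motif overlapped another.
Muc2 (chr7:141690090-141690339, + strand): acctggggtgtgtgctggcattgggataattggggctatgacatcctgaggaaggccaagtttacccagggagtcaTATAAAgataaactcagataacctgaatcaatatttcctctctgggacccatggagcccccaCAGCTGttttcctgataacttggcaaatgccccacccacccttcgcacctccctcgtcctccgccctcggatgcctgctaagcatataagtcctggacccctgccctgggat
Fcgbp (chr7:28070986-28071235, + strand): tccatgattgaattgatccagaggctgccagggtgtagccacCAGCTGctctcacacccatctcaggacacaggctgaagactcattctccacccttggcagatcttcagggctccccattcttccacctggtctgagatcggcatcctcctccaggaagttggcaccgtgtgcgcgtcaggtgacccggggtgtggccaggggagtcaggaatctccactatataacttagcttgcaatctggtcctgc
Klk1 (chr7:44225110-44225359, + strand): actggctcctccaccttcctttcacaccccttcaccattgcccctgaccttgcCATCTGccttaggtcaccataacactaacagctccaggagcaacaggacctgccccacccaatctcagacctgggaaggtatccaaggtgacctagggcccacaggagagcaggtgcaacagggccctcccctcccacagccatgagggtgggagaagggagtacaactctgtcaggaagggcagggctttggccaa
Foxa3 (chr7:19023540-19023789, - strand): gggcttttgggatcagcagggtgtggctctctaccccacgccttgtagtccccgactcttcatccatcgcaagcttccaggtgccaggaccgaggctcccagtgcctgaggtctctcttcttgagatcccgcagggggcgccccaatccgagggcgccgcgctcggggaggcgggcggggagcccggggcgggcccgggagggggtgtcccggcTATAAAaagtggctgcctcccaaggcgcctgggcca
The table of sequences held a window for 6 of the 10 members (Muc2, Fcgbp, Klk1, Foxa3, Agr2 and Spdef). In windows of 300 bases, which reach 50 bases past the start, an E-box of either spelling was present in 3 of the 6 (Muc2, Fcgbp and Klk1) and in 30.6% of all 32851 windows. TATAAA was present in 2 of the 6 (Muc2, at -174 from the start, and Foxa3, at -36), against 13.6% of all windows. Other TATA-like spellings were not searched, so an unmarked window may still hold one. Neither forkhead spelling was found in the 6, against 8.48% of all windows. These letters are a description of short windows and do not locate a bound site.

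Libraries held between 59016196 and 76216530 counts. Levels are given as normalized counts, which are the counts of a gene divided by the DESeq2 size factor of its library as the authors deposited them. Groups were compared on the counts with edgeR's quasi-likelihood test over 19581 genes in 1 model of the 4 groups, and a gene was called when its Benjamini-Hochberg adjusted p was under 0.05 and its absolute log2 fold change at least 1. Together the 10 genes took 1.87% to 2.26% of the counts of LI tissue libraries and 0.592% to 1.09% of those of SI tissue libraries. In monolayers the order was the other way round, with 0.526% to 0.541% in SI and 0.194% to 0.211% in LI. The 4 ranges did not overlap. Within SI tissue, each of the 10 genes was lowest in replicate 1 and highest in replicate 3. The summed normalized counts of 12 enterocyte markers stood in the opposite order there, at 1256704, 1133102 and 816068 in replicates 1, 2 and 3. The part of this in the SI tissue values was not tested.

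In LI monolayers 10 of 10 members fell against LI tissue, where 38% of all genes tested were called, 23.5% lower and 14.5% higher. In SI monolayers 4 of 10 fell against SI tissue (Muc2, Clca1, Spink4 and Klk1), and none was called higher, where 26.1% of all genes tested were called, 16.4% lower and 9.71% higher. The median log2 fold change over the 10 genes was -3.03 in LI and -0.72 in SI, beside -0.05 over all genes tested in either region. No overlap between the libraries of tissue and monolayers was seen for 10 of 10 members in LI and 9 of 10 in SI, against 73.1% and 66.4% of all genes tested. In tissue, 7 of 10 were lower in SI than in LI and none was higher, with 22.7% of all genes called, 11.1% lower and 11.6% higher. The libraries of the 2 tissues did not overlap for 8 of 10 members, against 58.8% of all genes tested. In monolayers, 6 of 10 were higher in SI (Fcgbp, Clca1, Tff3, Agr2, Spink4 and Foxa3) and 2 were lower (Muc2 and Klk1), with 21.2% of all genes called, 12.4% higher and 8.88% lower. The libraries of the 2 kinds of monolayer did not overlap for 9 of 10 members, against 62.3% of all genes tested.

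**Figure D1:**
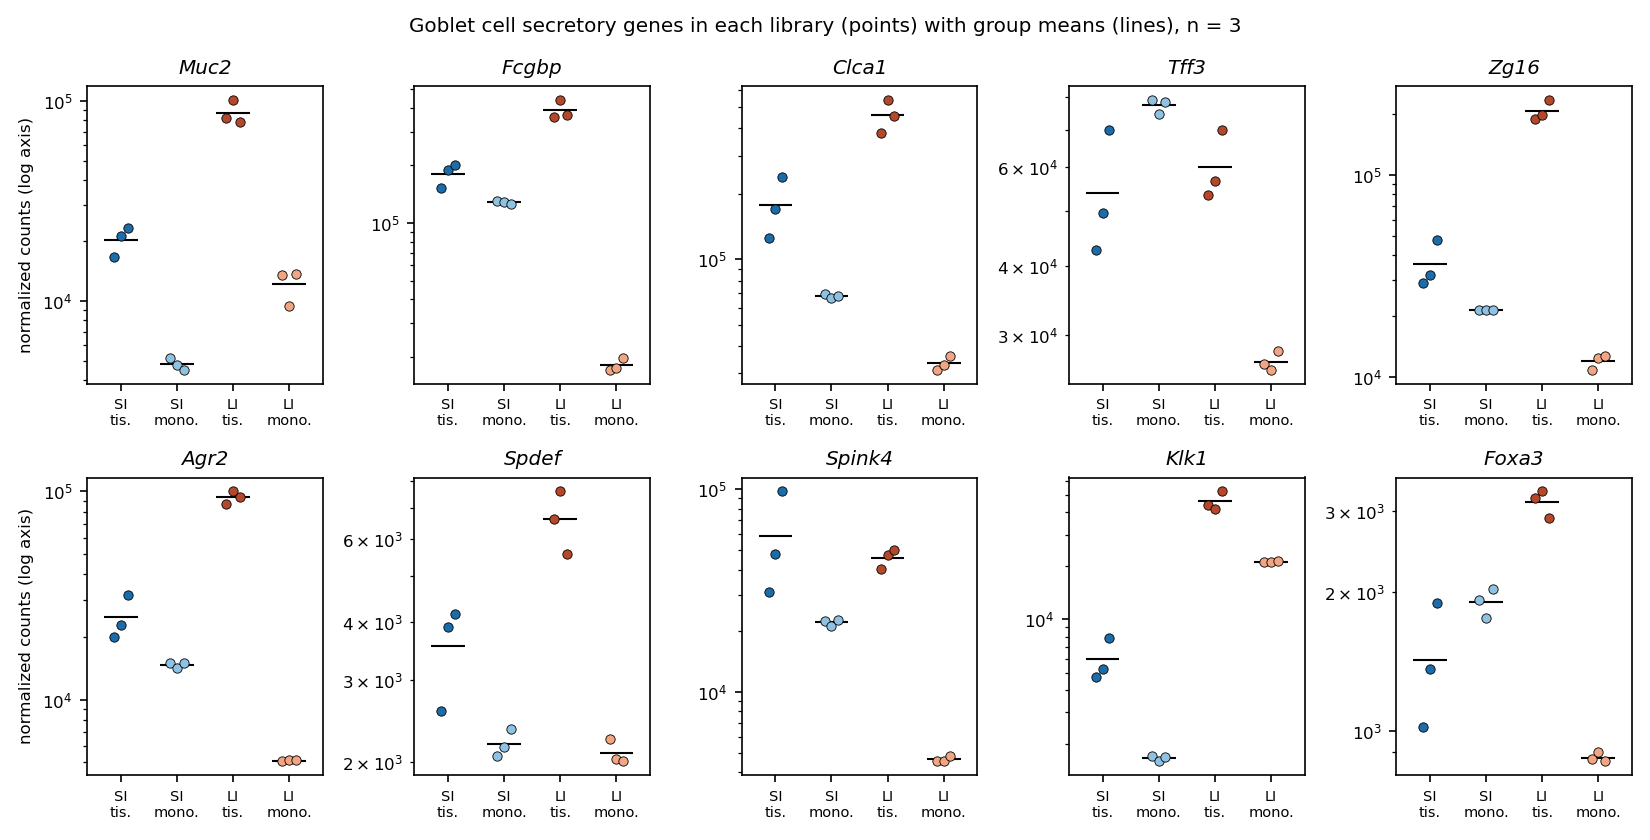
Normalized counts (log axis) of the 10 goblet cell secretory genes in each of the 12 libraries, with the 4 groups along the horizontal axis of each panel, points for the 3 libraries of a group and a line for their mean. LI monolayers hold the lowest mean for 8 genes, and SI monolayers hold it for Muc2 and Klk1.

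The structural mucus genes come first. Muc2 (ENSMUSG00000025515.15, chromosome 7 from 141690340 to 141754693, + strand) encodes the gel-forming mucin of the intestine. It stood at 16536, 21071 and 23073 normalized counts in the SI tissue libraries and at 5176, 4779 and 4498 in the SI monolayer libraries. The LI tissue libraries held 82439.9, 101522 and 78249 and the LI monolayer libraries 13437, 9366 and 13609. LI lay above SI in both preparations, tissue lay above monolayers in both regions, and no ranges of the 4 groups overlapped. In SI monolayers Muc2 fell 4.1-fold (log2 fold change -2.04, SE 0.18, adjusted p = 4.8e-06). In LI monolayers it fell 6.97-fold (-2.80, SE 0.18, adjusted p = 3.05e-07). The SI to LI difference was a log2 fold change of -2.07, SE 0.18, adjusted p = 5.23e-06 in tissue and -1.31, SE 0.18, adjusted p = 0.000148 in monolayers. Muc2 was called higher in LI in both preparations, and the difference between the 2 culture changes (log2 0.77, SE 0.25, adjusted p = 0.0286) was under the minimum fold change.

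Fcgbp (ENSMUSG00000047730.17, chromosome 7 from 28071236 to 28120862, + strand) encodes a large protein of the mucus gel with repeated von Willebrand domains. SI tissue libraries held 152240.0, 189618 and 199924 normalized counts and SI monolayer libraries 129727, 128911 and 126019. In LI tissue the values were 357544, 440508 and 365368, and in LI monolayers 17097, 17598 and 19695. The 4 ranges did not overlap, and LI went from the highest group to the lowest. Fcgbp fell 20.7-fold in LI monolayers (log2 fold change -4.37, SE 0.12, adjusted p = 7.46e-13), while the SI change of -0.46 (SE 0.10, adjusted p = 0.00137) was under the minimum fold change. Of the 10 genes it had the largest log2 difference between the culture changes of the regions, 3.91, SE 0.15, adjusted p = 2.87e-10. It was 2.09-fold lower in SI than in LI tissue (log2 fold change -1.06, SE 0.10, adjusted p = 1e-06) and 7.22-fold higher in SI than in LI monolayers (2.85, SE 0.11, adjusted p = 9.27e-11). The tissue call lies close to the minimum fold change: without SI tissue replicate 1 the log2 fold change was -0.95, and without LI tissue replicate 2 it was -0.96.

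Clca1 (ENSMUSG00000028255.6, chromosome 3 from 145003817 to 145032776, - strand) encodes a secreted metalloprotease of the mucus. Its libraries held 125763, 171032 and 239512 normalized counts in SI tissue and 69737, 66344 and 68094 in SI monolayers. They held 380129, 542742 and 455345 in LI tissue and 31058, 32817 and 36076 in LI monolayers. The means were 178769 ± 57268 in SI tissue and 459405 ± 81382 in LI tissue (SD, n = 3), and no ranges overlapped. Clca1 fell in both regions, 2.57-fold in SI (log2 fold change -1.36, SE 0.22, adjusted p = 0.000534) and 13.4-fold in LI (-3.74, SE 0.24, adjusted p = 4.86e-07). The fall in LI was larger by a log2 difference of 2.38, SE 0.31, adjusted p = 0.000213. Clca1 was lower in SI than in LI tissue (-1.32, SE 0.22, adjusted p = 0.000739) and higher in SI than in LI monolayers (1.06, SE 0.22, adjusted p = 0.00289).

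Zg16 (ENSMUSG00000049350.6, chromosome 7 from 127050156 to 127087328, - strand) encodes a small lectin of the mucus that binds the wall of Gram-positive bacteria. SI tissue stood at 29137, 31959 and 47747 normalized counts and SI monolayers at 21534, 21525 and 21502. The SD of the monolayer libraries, 16.1, is under the counting noise of their 22435 to 24180 counts and does not measure how steady the gene is. LI tissue stood at 188994, 198227 and 235260.0 and LI monolayers at 10814, 12411 and 12678. LI tissue was far above the other 3 groups, and LI monolayers lowest, with no overlap. The fall in LI was 16.8-fold (log2 fold change -4.07, SE 0.19, adjusted p = 2.12e-08), and in SI the log2 fold change of -0.72, SE 0.17, adjusted p = 0.00488 did not reach the minimum. Between regions the log2 fold change was -2.48, SE 0.18, adjusted p = 1.38e-06 in tissue. In monolayers it was 0.88, SE 0.17, adjusted p = 0.00185, under the minimum and of the other sign. The culture changes of the regions differed by 3.35, SE 0.25, adjusted p = 2.92e-06.

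Tff3, the trefoil peptide, and Agr2, which helps to fold the mucin, followed different courses. Tff3 (ENSMUSG00000024029.4, chromosome 17 from 31125306 to 31129646, - strand) encodes a small peptide secreted with mucus that promotes epithelial repair. Its values were 42579.7, 49725 and 69765 in SI tissue and 79259, 74625 and 78397 in SI monolayers, so each SI monolayer library held more than any other library. Values in LI were 53477, 56742 and 69802 in tissue and 26631, 26014 and 28154 in monolayers. The ranges of SI and LI tissue overlapped, and the log2 fold change between them was -0.11 (adjusted p = 0.618, 95% interval -0.44 to 0.22). Its sign turned without SI tissue replicate 1 (0.037) and without LI tissue replicate 3 (0.020). Tff3 fell in LI monolayers (log2 fold change -1.11, SE 0.17, adjusted p = 0.000203), a call close to the minimum that was at -0.98 without LI tissue replicate 3. In SI the log2 fold change was 0.55, SE 0.17, adjusted p = 0.0172, above 0 but not called. The 2 culture changes differed by 1.66, SE 0.24, adjusted p = 0.000286, and Tff3 was higher in SI than in LI monolayers (1.55, SE 0.17, adjusted p = 3.23e-05).

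Agr2 (ENSMUSG00000020581.11, chromosome 12 from 35992907 to 36004087, + strand) encodes a protein disulfide isomerase of the endoplasmic reticulum that MUC2 production needs. It stood at 20012, 22862 and 31823 in SI tissue and 14939, 14152 and 15013 in SI monolayers. LI tissue held 87181, 100440.0 and 94045, and LI monolayers 5048, 5114 and 5124. No ranges overlapped. The SD of the LI monolayer libraries was 41.1, which is under the counting noise of their 4456 to 5244 counts. Agr2 fell 17.9-fold in LI (log2 fold change -4.16, SE 0.16, adjusted p = 7.15e-10) and was not called in SI (-0.73, SE 0.14, adjusted p = 0.000914). It was lower in SI than in LI tissue (-1.87, SE 0.14, adjusted p = 7.53e-07), higher in SI than in LI monolayers (1.56, SE 0.14, adjusted p = 3.65e-06), and its culture changes differed by 3.43, SE 0.20, adjusted p = 1.74e-07. Of all pairs of members, Clca1 and Agr2 had the most similar course over the 12 libraries, with a root mean square difference of 0.281 between their centred log2 CPM, followed by Zg16 and Agr2 at 0.334.

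Spink4 and Klk1 are products that other cells make as well. Spink4 (ENSMUSG00000028415.4, chromosome 4 from 40920052 to 40931395, + strand) encodes a Kazal-type inhibitor of serine proteases made in goblet and Paneth cells. SI tissue held 31078, 47702 and 97646 normalized counts, replicate 3 standing well above the others, and SI monolayers 22317, 21136 and 22671. LI tissue held 40211, 47292 and 50099.9 and LI monolayers 4519, 4539 and 4809. The ranges of SI and LI tissue overlapped (log2 fold change 0.40, SE 0.35, adjusted p = 0.377, 95% interval -0.29 to 1.09), and without SI tissue replicate 3 it was -0.18. Spink4 fell 9.62-fold in LI monolayers (log2 fold change -3.27, SE 0.38, adjusted p = 5.77e-05). In SI its log2 fold change was -1.38, SE 0.36, adjusted p = 0.00898, and without SI tissue replicate 3 it was -0.80 and no longer called. Fitted on the SI libraries alone it was -1.36, with an adjusted p of 0.0714, and not called. It was higher in SI than in LI monolayers (2.28, SE 0.37, adjusted p = 0.000758), and the difference between the culture changes was 1.88, SE 0.50, adjusted p = 0.0142. Summed normalized counts of 10 Paneth cell markers, Lyz1 and 5 alpha-defensins among them, were 311070.1, 611789.8 and 1568296 in the SI tissue replicates 1, 2 and 3. Spink4 stood in the same order, as did each of the other 9 members. The SI monolayer libraries had sums of 548151 to 594859, LI tissue 3689.5 to 8487 and LI monolayers 4655 to 6019. Of the 10 markers, 1 was called lower in monolayers in each region (Habp2 in SI and Pla2g2a in LI). Among all genes tested, 16.4% were called lower in SI and 23.5% in LI. The part of Paneth cells in the Spink4 values of SI was not tested.

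**Figure D2:**
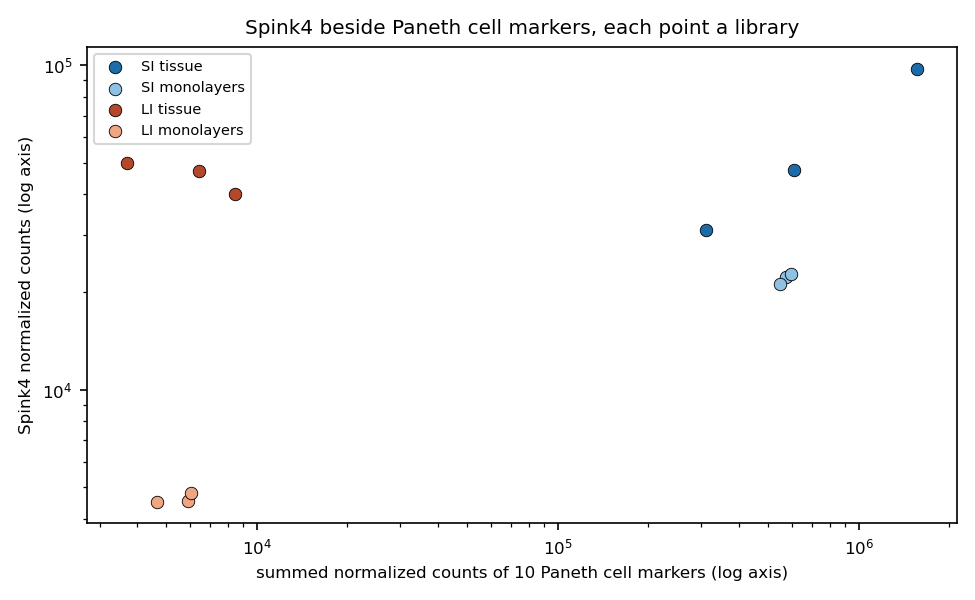
Spink4 normalized counts (vertical, log axis) against the summed normalized counts of 10 Paneth cell markers (horizontal, log axis), each point 1 of the 12 libraries and colours the 4 groups. SI libraries lie at Paneth sums of 311070.1 or more and LI libraries at 8487 or less, and LI tissue and LI monolayers differ in Spink4 at similar sums.

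Klk1 (ENSMUSG00000063903.5, chromosome 7 from 44225360 to 44229618, + strand) encodes tissue kallikrein, a serine protease. SI tissue held 4759, 5228 and 7884 normalized counts and SI monolayers 1699.8, 1585 and 1687. LI tissue held 43727, 41911 and 52737, and LI monolayers 20929, 20944 and 21431. Both LI groups lay above both SI groups, which was so for no other member. Klk1 fell in SI (log2 fold change -1.81, SE 0.18, adjusted p = 1.13e-05) and in LI (-1.08, SE 0.17, adjusted p = 0.000293), where it was at -0.97 without LI tissue replicate 3 and no longer called. It was 7.52-fold lower in SI than in LI tissue (-2.91, SE 0.18, adjusted p = 4.77e-07) and 12.5-fold lower in SI than in LI monolayers (-3.64, SE 0.19, adjusted p = 1.25e-07). The log2 difference between its culture changes, -0.73, SE 0.24, adjusted p = 0.0344, was under the minimum. Its share of the normalized counts of all 10 members was 3.33% ± 0.536 in LI tissue and 15.5% ± 0.581 in LI monolayers (SD, n = 3). The mouse genome holds many close copies of Klk1, and reads shared between copies may have been lost or divided in counting. Of 13 Klk1b genes, 5 passed the filter, and the most abundant of them, Klk1b5, averaged 513 normalized counts in LI tissue. These 5 had log2 fold changes of -2.33 (Klk1b3), -3.68 (Klk1b4), -2.23 (Klk1b5), -2.79 (Klk1b11) and -2.63 (Klk1b21) for SI against LI tissue, and all 5 were called. Among all genes tested, 11.1% were called lower in SI than in LI tissue. Gm10109, a pseudogene annotated on the opposite strand within Klk1, held 0.0386% as many counts as Klk1.

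The last 2 members are transcription factors. Spdef (ENSMUSG00000024215.14, chromosome 17 from 27714352 to 27728955, - strand) encodes an ETS factor needed for goblet cell maturation. It stood at 2571, 3899.7 and 4149 in SI tissue, 2056, 2152 and 2352 in SI monolayers, 6652, 7620.1 and 5592 in LI tissue and 2237, 2032 and 2004 in LI monolayers. The monolayers of both regions overlapped at the low end, and the log2 fold change between them was 0.09, SE 0.17, adjusted p = 0.695, with a 95% interval of -0.25 to 0.43. Spdef fell in LI monolayers (-1.62, SE 0.17, adjusted p = 1.32e-05), and its SI change of -0.66, SE 0.17, adjusted p = 0.00736 and its SI to LI tissue difference of -0.86, SE 0.17, adjusted p = 0.00167 did not reach the minimum fold change. The log2 difference between its culture changes was 0.95, SE 0.24, adjusted p = 0.00902 in the fit of all libraries and past the minimum in 9 of 12 fits that left out 1 library, up to 1.11.

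Foxa3 (ENSMUSG00000040891.6, chromosome 7 from 19013284 to 19023538, - strand) encodes a forkhead factor present in goblet and enteroendocrine cells. Its normalized counts were 1017, 1362 and 1893 in SI tissue and 1923, 1755 and 2029.8 in SI monolayers, ranges that overlapped. LI tissue held 3190.4, 3308 and 2886, above every other library, and LI monolayers 866, 899.9 and 858, below every other library. Foxa3 fell in LI (log2 fold change -1.79, SE 0.18, adjusted p = 3.84e-06) and was not called in SI (0.45, SE 0.17, adjusted p = 0.0455), where the sign was positive. Its culture changes differed by 2.24, SE 0.25, adjusted p = 2.74e-05. It was lower in SI than in LI tissue (-1.09, SE 0.17, adjusted p = 0.00029), a call that was lost at -0.90 without SI tissue replicate 1, and higher in SI than in LI monolayers (1.15, SE 0.18, adjusted p = 0.000238).

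**Figure D3:**
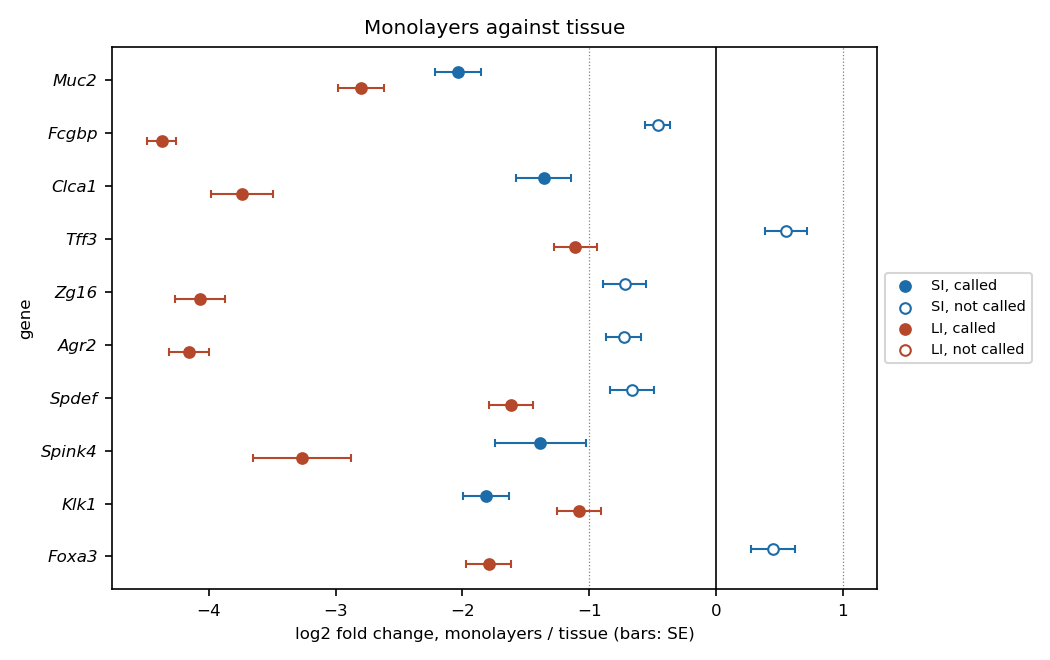
Log2 fold change of monolayers against tissue (horizontal axis) for each of the 10 genes, SI in blue and LI in red, with bars of 1 SE, filled points for called genes and dotted lines at -1 and 1. All 10 LI points are called and lie between -4.37 and -1.08, whereas the SI points lie between -2.04 and 0.55.

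Read across the 10 genes, the culture changes of the regions were unequal for 7: Fcgbp, Agr2, Zg16, Clca1, Foxa3, Spink4 and Tff3 passed the test of the difference itself, all with the larger fall or the only fall in LI. Of all genes tested, 20% were called in this test, 11.4% in that direction and 8.51% in the other. Muc2, Klk1 and Spdef were not called in this test. The median log2 difference between culture changes was 2.06 over the 10 genes and -0.00 over all genes tested. The same 4 groups of libraries give the comparisons between regions. Of the 7 members that were lower in SI than in LI tissue, 4 were called higher in SI monolayers (Fcgbp, Clca1, Agr2 and Foxa3), 1 was not called (Zg16) and 2 stayed lower (Muc2 and Klk1). Of the 3 that were not called in tissue, Tff3 and Spink4 were called higher in SI monolayers and Spdef was not called.

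**Figure D4:**
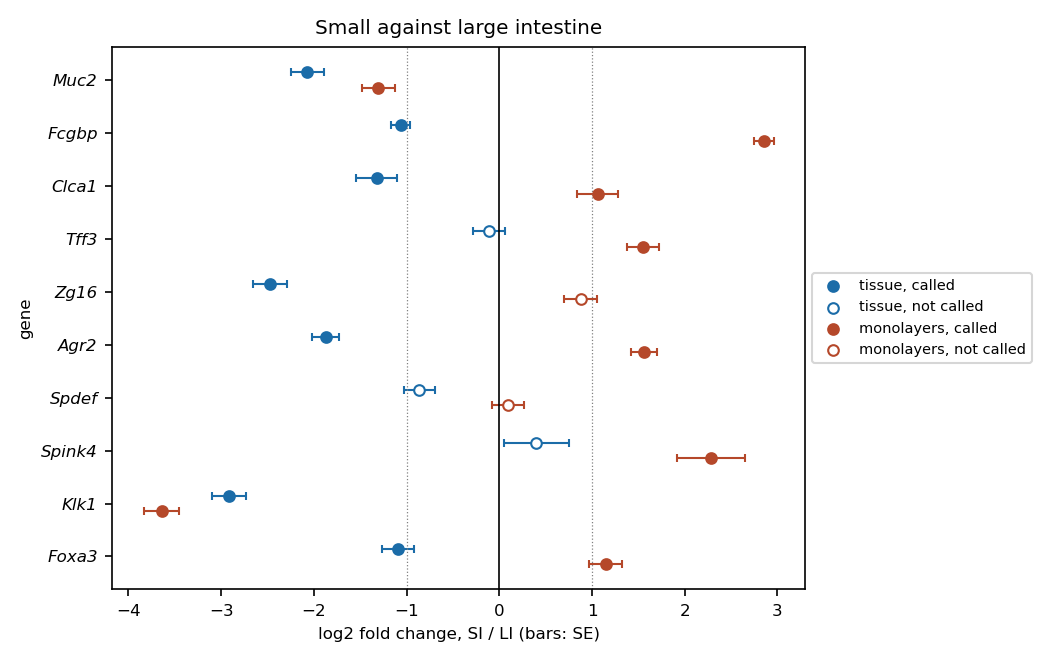
Log2 fold change of SI against LI (horizontal axis) for each of the 10 genes, tissue in blue and monolayers in red, with bars of 1 SE, filled points for called genes and dotted lines at -1 and 1. Muc2 and Klk1 lie left of 0 in both preparations, and the other monolayer points lie right of 0, from 0.09 for Spdef to 2.85 for Fcgbp.

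Levels of different genes were compared per length, as counts per base of exon relative to their sum over the library (TPM, computed on the exon lengths of GENCODE M21). Spink4 at 4358 ± 2548 TPM and Tff3 at 3872 ± 1012 TPM were the most abundant of the 10 in SI tissue and did not differ beyond their spread (SD, n = 3). Clca1 at 1674 ± 540.4 and Zg16 at 1019 ± 279.6 TPM came next, in an order that turned with the longest transcript as the length (1396 and 1430.0 TPM). In LI tissue Zg16 led at 6474 ± 639.6 TPM and was the 9th most abundant of all genes. Tff3 at 6817 ± 167 TPM was the 7th most abundant gene of SI monolayers, and it also led the 10 members in LI monolayers at 2474 ± 86.3. In LI monolayers Klk1 was second among the members at 887 ± 6.17 TPM. The regulators stood lowest in SI tissue, Spdef at 54.4 ± 13.9 and Foxa3 at 24.7 ± 7.72 TPM. Muc2 reached 481 ± 65.5 TPM in LI tissue and 100.4 ± 18 in SI tissue, but its length is uncertain: the annotation gives it 7127 bases of exon in all and no transcript over 2926 bases, and with the longest transcript as the length these levels became 909 and 197.

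Further genes came from lists chosen by function around the secretory lineage and mucus. These lists are not limited to goblet cells, and the list of regulators also holds Notch1 and Hes1 of Notch signalling. Counts over a list are therefore not counts of goblet cell genes alone. Among 14 regulators of the secretory lineage, 9 fell and 2 rose in LI monolayers, and 4 fell and 1 rose in SI monolayers. Among all genes tested, 23.5% fell and 14.5% rose in LI, and 16.4% fell and 9.71% rose in SI. The median log2 fold change was -2.02 in LI and -0.53 in SI. Atoh1, the factor that opens the lineage, went from 6402 ± 332 normalized counts in LI tissue to 887 ± 36.4 after culture (log2 fold change -2.81, adjusted p = 1.9e-08), and from 2273 ± 615 to 1521 ± 22.3 in SI, where it was not called (-0.55, adjusted p = 0.00849). Gfi1, its target in the lineage, fell in both regions (-3.30, adjusted p = 2.47e-10 in LI and -1.03, adjusted p = 7.31e-05 in SI). Klf4, a zinc finger factor of goblet cell differentiation, fell from 54509 ± 1361 to 6014 ± 144 in LI (-3.13, adjusted p = 7.67e-15) and from 13536 ± 1815 to 3993 ± 148 in SI (-1.73, adjusted p = 1.05e-11). Creb3l1 and Creb3l4, membrane-bound factors of secretory cells, fell in LI (-3.18 and -3.36) and were not called in SI (-0.51 and -0.89). Dll1, a Notch ligand, fell in LI (-2.05) and was not called in SI (-0.42). For 10 of the 14 regulators the culture changes of the regions were called unequal, all with the lower log2 fold change in LI, Atoh1 with a log2 difference of 2.26, adjusted p = 7e-06. Among all genes tested, 11.4% were called in that direction and 8.51% in the other.

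Of 20 genes of the secretory endoplasmic reticulum and of granule release, 10 fell and none rose in LI monolayers, and none fell and 2 rose in SI monolayers. The shares over all genes tested were 23.5% lower and 14.5% higher in LI, and 16.4% lower and 9.71% higher in SI. The rises in SI were thus near the share of all genes. They were those of Sytl2, from 1954 ± 566 to 5624 ± 176 normalized counts, and Bace2, from 992 ± 173 to 3199 ± 124. Ern2, the stress sensor of mucus-making cells, went from 6346 ± 295 to 1448 ± 58.6 in LI (log2 fold change -2.08, adjusted p = 1.92e-05) and from 1682 ± 636 to 1266 ± 26.3 in SI, where it was not called (-0.38, adjusted p = 0.173). Xbp1, the factor downstream of this sensor family, was called in neither region (-0.56 in LI and -0.09 in SI). The granule genes Rab27a and Rab3d fell in LI (-2.86 and -2.60) and were not called in SI (-0.96 and -0.15). Nlrp6, an inflammasome sensor linked to granule release in the colon, averaged 25639.6 ± 2212 in SI and 24392 ± 639 in LI tissue (log2 fold change 0.11, adjusted p = 0.116). In monolayers it averaged 14674 ± 257 in SI and 1621 ± 74.4 in LI (log2 fold change 3.21, adjusted p = 5.2e-15). Pdia5, a disulfide isomerase, fell in LI (-2.61) and was not called in SI (-0.73).

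Enzymes of mucin O-glycosylation moved in both directions. Of 24 listed, 22 were tested, of which 9 fell and 5 rose in LI monolayers and 4 fell and 4 rose in SI monolayers. The shares over all genes tested were 23.5% lower and 14.5% higher in LI, and 16.4% lower and 9.71% higher in SI. The falls in SI were thus near the share of all genes. The largest fall was that of B3gnt6, which builds core 3 glycans of the colon, from 1703 ± 624 to 43.4 ± 7.8 normalized counts in LI (log2 fold change -5.23, adjusted p = 2.08e-07), with -1.34, adjusted p = 0.0058 in SI. C1galt1, which starts core 1 glycans, was called in neither region (0.02 in LI and 0.44 in SI). Galnt12, which adds the first sugar, was also called in neither (-0.81 and -0.49), while Galnt5 of the same family fell in LI (-3.88) and was not called in SI (-0.96). Galnt3, also of this family, went the other way. It averaged 5313 ± 175 normalized counts in LI tissue and 26436 ± 675 in LI monolayers, and 3232 ± 385 and 10510 ± 200 in SI. The other enzymes that rose are not named here. The galactosyltransferase B3galt5 fell in both regions (-2.78 in LI and -2.30 in SI), as did the sialyltransferase St3gal4 (-2.79 and -1.25). Gcnt4, which branches the glycans, was higher in SI than in LI both as tissue (4.09) and as monolayers (2.69). St6galnac1 did not pass the filter and averaged 8.59 normalized counts in LI tissue.

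**Figure D5:**
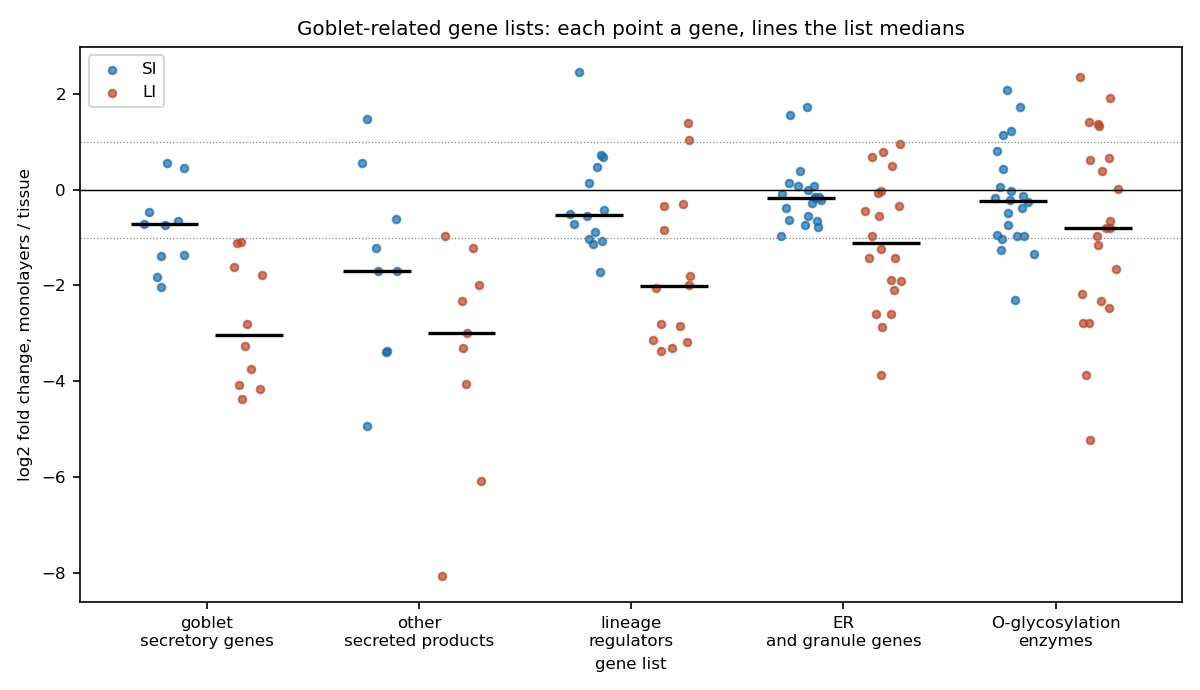
Log2 fold change of monolayers against tissue (vertical axis) for the genes tested in 5 lists, each point a gene, SI in blue and LI in red, with black lines at the list medians and dotted lines at -1 and 1. The LI median lies below the SI median in each of the 5 lists, from -3.03 against -0.72 for the goblet secretory genes to -0.80 against -0.24 for the glycosylation enzymes.

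Of 9 other secreted or surface products, 8 fell and none rose in LI monolayers, and 5 fell and 1 rose (Guca2a) in SI monolayers. Among all genes tested, 23.5% fell and 14.5% rose in LI, and 16.4% fell and 9.71% rose in SI. Retnlb, a bactericidal goblet cell product, fell from 57166 ± 16228 to 204 ± 33.7 in LI (log2 fold change -8.08, adjusted p = 6.55e-06) and from 3428 ± 1391 to 111 ± 88.4 in SI (-4.93, adjusted p = 0.00016). Ang4, an antimicrobial ribonuclease, fell in both regions (-6.08 in LI and -3.37 in SI), as did the lectin Reg4 (-1.99 and -1.70). Itln1, a lectin also listed with the Paneth cell markers, was called in neither region (-0.97 and -1.22), and Sval1 fell in LI (-3.31) and was not called in SI (0.55). The gel-forming mucins and trefoil peptides of the stomach and airways were near the limit of detection. Muc5ac had no count in any library. If counts were independent, this would still allow up to 3 counts, or 0.0394 to 0.0508 CPM by library, for counting error alone. Most low counts were even, so counts may not be independent and the limit may be higher. Tff1 averaged at most 0.913 and Tff2 at most 12.8 normalized counts in any group. Muc6 averaged 21.7 ± 10.3 in SI tissue and 17.7 ± 1.45 in LI tissue. Its monolayer libraries held at most 5.47 in SI and 3.85 in LI, and it was called lower in monolayers of both.

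Of 24 relatives of the members, 16 were tested, of which 10 fell and 3 rose in LI monolayers and 9 fell and 1 rose in SI monolayers. Among all genes tested, 23.5% fell and 14.5% rose in LI, and 16.4% fell and 9.71% rose in SI. Clca3b, of the gene cluster that holds Clca1, rose in LI monolayers from 42158 ± 909 to 151559 ± 4811 normalized counts (log2 fold change 1.89, adjusted p = 3.96e-14), as did Clca4a (1.02, adjusted p = 0.0223), while Clca4b fell (-4.02, adjusted p = 9.15e-10). Spink1 fell in both regions (-4.29 in LI and -3.94 in SI). Of the other FOXA factors, Foxa2 fell in LI (-1.79) and was not called in SI (0.68), whereas Foxa1 rose in both (1.03 and 2.45). Clca3b and Foxa1 were named after their values were seen. Among 9209 other genes with a mean of at least 10 CPM, those nearest to Muc2 over the 12 libraries were Tmem171, Lypd8, Klf4, Mfsd4a and Zfp467, with root mean square differences of 0.278 to 0.354 between centred log2 CPM. Nearest to Spdef were Usf3, Pqlc3, Hepacam2, Slc35b3 and Ssr4, at 0.181 to 0.201.

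Some markers of other cells were also called between tissue and monolayers. Among all genes tested, 16.4% fell and 9.71% rose in SI, and 23.5% fell and 14.5% rose in LI. Of 8 tuft cell markers, 8 fell in monolayers in both regions, and their summed normalized counts went from 30368 to 42102 to 2524 to 2665 in SI and from 3274 to 5449.8 to 523 to 644 in LI. Of 8 immune markers, 7 fell in SI and 8 in LI, where the sums went from 42853 to 100739 to 9830.3 to 10425 and from 84385 to 114409 to 445 to 595. Of 12 enterocyte markers, 5 fell in each region and none rose. Of 8 enteroendocrine markers, 1 rose in SI and 5 in LI, and none fell. Of 8 stem cell markers, 2 fell in SI and 4 in LI. Of 8 proliferation markers, none was called in either region, and of 8 mesenchymal markers 1 fell in SI, while 2 fell and 2 rose in LI. The SI counts of the stem cell, enteroendocrine and mesenchymal markers are near the shares of all genes tested. The mitochondrial share of counts was 4.56% to 9.16% in SI tissue, 2.25% to 2.59% in LI tissue and 0.472% to 0.75% in monolayers. The part of these differences in the goblet cell values was not tested.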

How the data were processed

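RNA was measured in 12 libraries, 3 in each of 4 groups taken from the sample titles. The authors aligned paired-end reads to GRCm38 with STAR (2.7.9a) and counted them on GENCODE vM25 genes with featureCounts (2.0.2), and they deposited whole-number counts per gene. The authors also deposited a normalized signal, made by dividing the counts of a library by a DESeq2 size factor and used here for levels. Whether both mates or the strand were counted is not given in the sources used here, and of counts from 1 to 20 between 73.4% and 77.4% were even in each library.

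Gene IDs were matched without their version to GENCODE M21 (GRCm38), which named 55227 of 55487 genes together with a table of gene names and gave positions and exon lengths. Counts were tested with edgeR 4.0.16 in R 4.3.3: filterByExpr by group (19581 genes, holding at least 99.97% of the counts of each library), TMM scaling, robust glmQLFit on 4 group means and glmQLFTest for 5 comparisons, the interaction of region and preparation included. Benjamini-Hochberg adjustment ran over all genes tested, separately in each comparison. SE is the log2 fold change divided by the root of its F statistic, and 95% intervals are 1.96 SE wide on each side. Centred log2 CPM used a prior count of 2. The script was tested on simulated data. The groups are replicates as labelled, and in the median over genes each pair of replicates differed by more than counting noise.

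The members and lists were chosen with earlier results of these data known. The genes named are all 10 members, up to 4 genes per list with the largest called change at a mean of at least 10 CPM, and Atoh1, Gfi1, Ern2, Xbp1, Galnt12, St6galnac1, B3gnt6, C1galt1, Retnlb, Reg4, Muc5ac, Muc6, Tff1 and Tff2. Klk1b genes, Clca3b, Foxa1, Galnt3, Sytl2, Bace2, Guca2a, Habp2 and Pla2g2a are named in addition. Galnt3, Sytl2 and Bace2 were named after their values were seen. Alternatives were other scalings, DESeq2 1.42.0 (Wald test), other filters, no minimum fold change, halved counts, fits of only the groups compared, a replicate block, and fits that left out 1 library at a time.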

Additional observations from a re-analysis of the deposited data

Results flagged for a closer look

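For 7 of the 10 genes the change from tissue to monolayers differed between SI and LI by the interaction test of edgeR. The log2 fold change in SI minus that in LI was 3.91 for Fcgbp, 3.43 for Agr2, 3.35 for Zg16, 2.38 for Clca1, 2.24 for Foxa3, 1.88 for Spink4 and 1.66 for Tff3. Each of the 7 was also called in 12 of 12 fits that left out 1 library.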

How the results depend on the processing

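Of 800 member values recomputed under the alternatives, 769 kept their direction and call, 7 lost the call, 21 gained it and 3 changed sign, none of them called. These 3 were SI to LI tissue differences: Tff3 at 0.037 without SI tissue replicate 1 and 0.020 without LI tissue replicate 3, and Spink4 at -0.18 without SI tissue replicate 3. Leaving out 1 library at a time, Tff3 ranged from -0.34 to 0.037 there and Spink4 from -0.18 to 0.71. With no minimum fold change, 8 members were lower and 2 higher in SI monolayers than in SI tissue. Of all 19581 genes tested, 5995 were lower and 5679 higher there. In the interaction test at this setting, Muc2 (0.77) and Spdef (0.95) were also called higher, and 1 member, Klk1 (-0.73), was called lower. Over all genes tested, 4559 were called higher and 4510 lower in that test. Leaving out 1 library at a time gave 3 to 4 members called lower in SI monolayers, 8 to 10 in LI monolayers, 5 to 7 lower in SI than in LI tissue, 6 higher and 2 lower in SI than in LI monolayers, and 7 to 8 in the interaction. Spink4 also lost its SI call when only the groups compared were fitted (log2 fold change -1.36, adjusted p = 0.0714, edgeR). Under upper quartile scaling the median log2 fold change of all genes in LI monolayers moved from -0.05 to -0.17, and Spdef was called in the interaction at 1.03. The replicate number as a block changed no call: 4 members fell in SI and 10 in LI monolayers. Deviations of same-numbered libraries from their group means correlated at -0.0516 to 0.0563, and those of differently numbered libraries at -0.108 to 0.0978. With 3 libraries per group and no known pair to compare with, these values cannot decide whether any libraries share a mouse. Each member held at least 784 counts in each library, so counting depth is not the limit, whereas 3 libraries per group are few.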
